A study of Mus musculus with 10 samples.

Results

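The genes described here are 43 genes of the G2 phase and mitosis, from cyclins and mitotic kinases to kinetochore, spindle and cytokinesis proteins. They are the rows of the deposited gene table whose gene name is one of the 43 names, out of 54987 genes listed. The table gives FPKM, a fragment count divided by gene length and by library depth, for mRNA from the popliteal lymph node, which drains the hind paw. All mice were BALB/c males of 6 to 8 weeks, and nodes were collected on day 15. The Acu group (3 libraries, numbered 6, 28 and 4) received complete Freund's adjuvant (0.1 ml, killed mycobacteria in oil) under the skin of the right hind paw, plus acupuncture, given at ST36 according to the series title. The AIA group (4 libraries, 5, 10, 31 and 38) had the same adjuvant without acupuncture, and the Control group (3 libraries, 15, 16 and 17) had the same volume of saline. A sham acupuncture group that the protocol mentions was not analysed here. Whether 1 mouse gave 1 library is not in the labels, and the p-values cover only the spread between the libraries, which may be technical.

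Cells that divide make these transcripts from late S phase to mitosis and lose most of them in G1, when the DREAM complex keeps the genes silent through promoter elements called CHR. Cyclin B and Cdk1 drive the entry into mitosis, the Aurora and Polo kinases build the spindle, kinetochores tie chromosomes to it, and the anaphase-promoting complex with Cdc20 then ends mitosis by degrading cyclins and securin. In a lymph node that drains an inflamed site, lymphocytes that meet their antigen are the classic dividing cells. In bulk RNA, fewer dividing cells and less RNA of these genes per cell cannot be told apart.

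The libraries were not alike before any comparison. Reads recovered from the table ran from 13269763 in AIA 10 to 18926894 in Control 15. The libraries labelled Control 17 and Acu 4 held high levels of genes of the uterine decidua and of the placental trophoblast, although the labels give male mice: the mean log2(FPKM + 1) over 7 decidual and uterine markers was 6.09 in the library labelled Acu 4 and 7.88 in the library labelled Control 17, against 0.34 to 0.89 in the other 8. T cell markers (10 genes) averaged 5.38, 5.50 and 0.63 in Acu 6, 28 and 4, between 5.35 and 5.74 in AIA, and 0.61, 4.94 and 0.46 in Control 15, 16 and 17. B cell markers (9 genes) averaged 6.21, 6.59 and 0.42 in Acu 6, 28 and 4, between 5.79 and 6.49 in AIA, and 0.52, 6.24 and 0.25 in Control 15, 16 and 17. The lymph node label thus had low lymphocyte markers in 3 libraries, and of the Control libraries only Control 16 had T and B cell markers near those of AIA. Adipocyte markers (7 genes) averaged 9.65 in Control 15 and 7.63 in Control 16, and 1.305 to 3.69 elsewhere. Skeletal muscle markers (7 genes) averaged 4.97, 5.96 and 1.14 in Acu 6, 28 and 4, between 0.46 and 5.62 in AIA, and 6.48, 8.21 and 0.74 in Control 15, 16 and 17. AIA 10 listed 3359 of the 17010 tested genes at 0, against 186 to 1246 in each other library. The part of these differences in the results below was not tested beyond leaving libraries out, and each comparison is given over all 10 libraries and over 8, without the libraries labelled Control 17 and Acu 4.

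**Figure D1:**
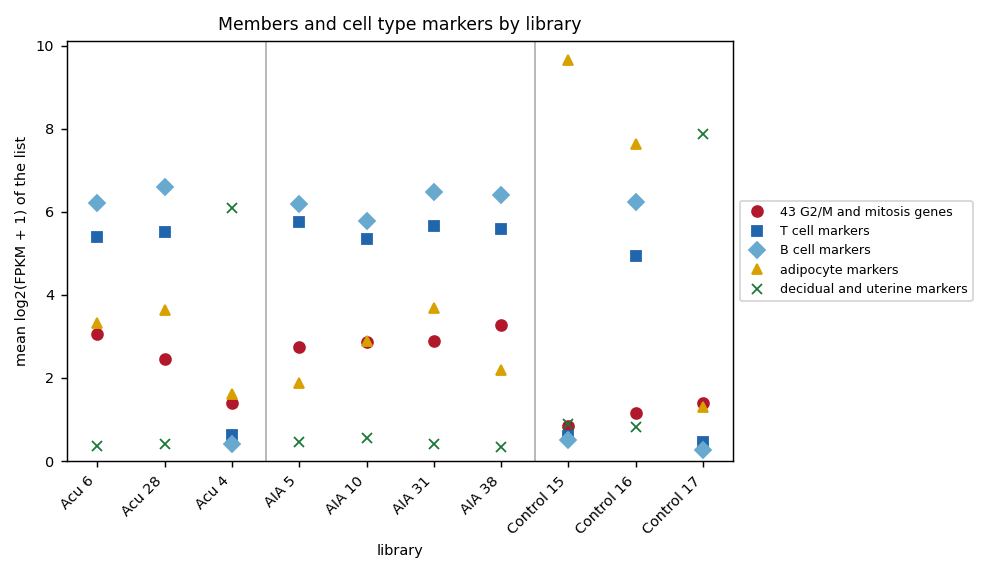
Mean log2(FPKM + 1) of the 43 members (red circles) and of 4 marker lists, each point 1 library, with Acu left, AIA in the middle and Control right. The members average 1.40 in the library labelled Acu 4 and 2.45 to 3.27 in the other adjuvant libraries, and 0.85 to 1.41 in the Control libraries, while T and B cell markers are between 0.25 and 0.63 in the library labelled Acu 4, in Control 15 and in the library labelled Control 17.

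Promoter sequences show the element that most members share. RefSeq lists 40 promoters (250 bases before to 50 after the gene start, build GRCm38.p6) for 37 of the 43 genes. The letters TTTGAA or TTCGAA, the core of the CHR, on either strand, were in 32 of the 40 (80%), against 19.2% of all 32851 RefSeq promoters of this length. The CCAAT box, the letters CCAAT on either strand, was in 30 (75%), against 37.4% of all, and at least 2 of them were in 52.5%, against 11.7%. Both a CHR core and a CCAAT box were in 67.5%, against 7.52%. The E2F letters TTTCCCGC, TTTGGCGC, TTTCGCGC or TTTGCCGC on either strand were in 3 of 40 (7.5%), against 2.26%. A CHR core and a CCAAT box overlapped in 1 of the 40 (Cdca8), no other pair of motifs did, and a match is a run of letters, not a bound site. The promoters shown are those of 6 members described below and of Anln, which had the smallest difference between AIA and Control; each runs from 170 bases before the start to 30 bases into the gene, and capitals mark CHR cores and CCAAT boxes. Mki67 (chr7:135716350-135716549, minus strand) and Ccnb2 (chr9:70421525-70421724, minus strand) hold both kinds, and so do Cdk1 (chr10:69352883-69353082, minus strand) and Cdc20 (chr4:118437314-118437513, minus strand). Plk1 (chr7:122159265-122159464, plus strand) shows its CCAAT box, with a CHR core starting at base 31 of the gene, just past the window. Ccnb1 (chr13:100786457-100786656, minus strand) holds 2 CCAAT boxes and no CHR core by these letters, and Anln (chr9:22389177-22389376, minus strand) holds a CHR match at base 22 of the gene, another from base 29 that runs past the window, and no CCAAT box.
Mki67: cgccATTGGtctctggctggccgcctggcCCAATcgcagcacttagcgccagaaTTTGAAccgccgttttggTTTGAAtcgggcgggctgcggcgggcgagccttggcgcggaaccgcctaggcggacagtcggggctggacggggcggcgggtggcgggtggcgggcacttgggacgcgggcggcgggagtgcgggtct
Ccnb2: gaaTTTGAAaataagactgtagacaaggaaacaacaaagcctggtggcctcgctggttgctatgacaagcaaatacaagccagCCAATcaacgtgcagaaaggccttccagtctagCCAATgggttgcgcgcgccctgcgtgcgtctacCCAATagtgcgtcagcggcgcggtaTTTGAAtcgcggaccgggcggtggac
Cdk1: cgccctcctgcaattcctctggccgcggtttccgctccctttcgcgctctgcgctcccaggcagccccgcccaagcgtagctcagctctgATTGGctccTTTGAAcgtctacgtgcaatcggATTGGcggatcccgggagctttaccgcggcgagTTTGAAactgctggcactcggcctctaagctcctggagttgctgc
Cdc20: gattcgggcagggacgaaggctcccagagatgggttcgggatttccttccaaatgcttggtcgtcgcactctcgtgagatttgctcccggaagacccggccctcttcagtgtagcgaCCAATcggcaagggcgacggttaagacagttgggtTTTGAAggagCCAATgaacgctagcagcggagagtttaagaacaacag
Plk1: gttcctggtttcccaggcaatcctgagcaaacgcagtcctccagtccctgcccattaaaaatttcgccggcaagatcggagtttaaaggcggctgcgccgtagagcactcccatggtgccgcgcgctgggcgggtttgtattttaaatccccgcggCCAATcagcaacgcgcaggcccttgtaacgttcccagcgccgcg
Ccnb1: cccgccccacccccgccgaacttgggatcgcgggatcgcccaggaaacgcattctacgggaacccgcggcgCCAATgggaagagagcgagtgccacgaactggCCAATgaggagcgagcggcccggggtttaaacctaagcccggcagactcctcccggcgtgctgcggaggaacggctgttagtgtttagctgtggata
Anln: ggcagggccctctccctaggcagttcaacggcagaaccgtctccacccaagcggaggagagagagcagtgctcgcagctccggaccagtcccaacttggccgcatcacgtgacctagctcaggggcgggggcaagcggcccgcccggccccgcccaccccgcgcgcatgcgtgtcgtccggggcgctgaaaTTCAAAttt

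The first comparison asks how the draining node after adjuvant differed from the node after saline. Without the libraries labelled Control 17 and Acu 4, 30 of the 41 members tested rose in AIA, and none fell. The increases that passed ran from 1.12 (Cenpf) to 3.53 (Mki67) on the log2(FPKM + 1) scale, on which every fold change here is given. The median over the 41 members was 1.97, against −0.01 over all 16067 genes tested, of which 4.28% rose by the same rule (limma, adjusted p under 0.05). Nek2 and Kif11, at no more than 0.625 and 0.586 FPKM in any library, were below the filter of 0.5 FPKM in at least 3 libraries and were not tested. Over all 10 libraries the members stood just as far apart, with all 41 higher in AIA and a median of 1.98, against −0.07 over all 17010 genes. Yet 0 of 41 passed there, against a background of 0.0118%. The smallest limma adjusted p was 0.0545 (Ccnb2), and 35 of 41 had an unadjusted p under 0.05, as did 4246 of all genes. Every AIA library lay above every Control library for 34 of 41 members over 10 libraries, against 11.4% of all genes, and for 38 of 41 over 8, against 18.0%.

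The calls of the 8-library fit depended on Control 15, the library with few lymphocyte transcripts and the most fat transcripts. Without Control 15, Control 16 was the only Control library, and the spread came from the other groups. All 41 members stood higher in AIA in that fit, with a median of 1.72. Ccna2, Cdk1, Ttk, Bub1, Aurkb, Cenpe, Ndc80, Kif4, Tpx2, Racgap1, Cdc20 and Ube2c lost their call only in the fit without Control 15. Ccnb1, Aurka, Bub1b, Birc5, Cenpa, Cenpf, Spc25 and Pttg1 lost theirs there and also without some other library. The fit without Control 16 likewise left only Control 15. Adjusted p given below without Control 15 thus rest on 1 Control library. So do, in part, calls said to pass in all 8 fits without 1 library. They show how far a call depends on Control 15 and are not a separate test. Without AIA 10, 37 of 41 passed, against a background of 10.1%, all but Ncapd2, Prc1, Ect2 and Anln. Set against Control 16 alone, whose T and B cell markers were at 4.94 and 6.24, the mean of the AIA libraries was 1.60 (Ncapd2) to 26.5 times (Cdc25c) as high, with a median of 7.65 times over the 41 members; a single library allows no test. Control 16 also held the most muscle marker RNA (8.21, against 0.46 to 5.62 in AIA) and much adipocyte marker RNA, and the part of these in the ratios was not tested. The fit of 8 libraries rests on 2 Control libraries, and the libraries left out were known to stand apart before it was made.

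**Figure D2:**
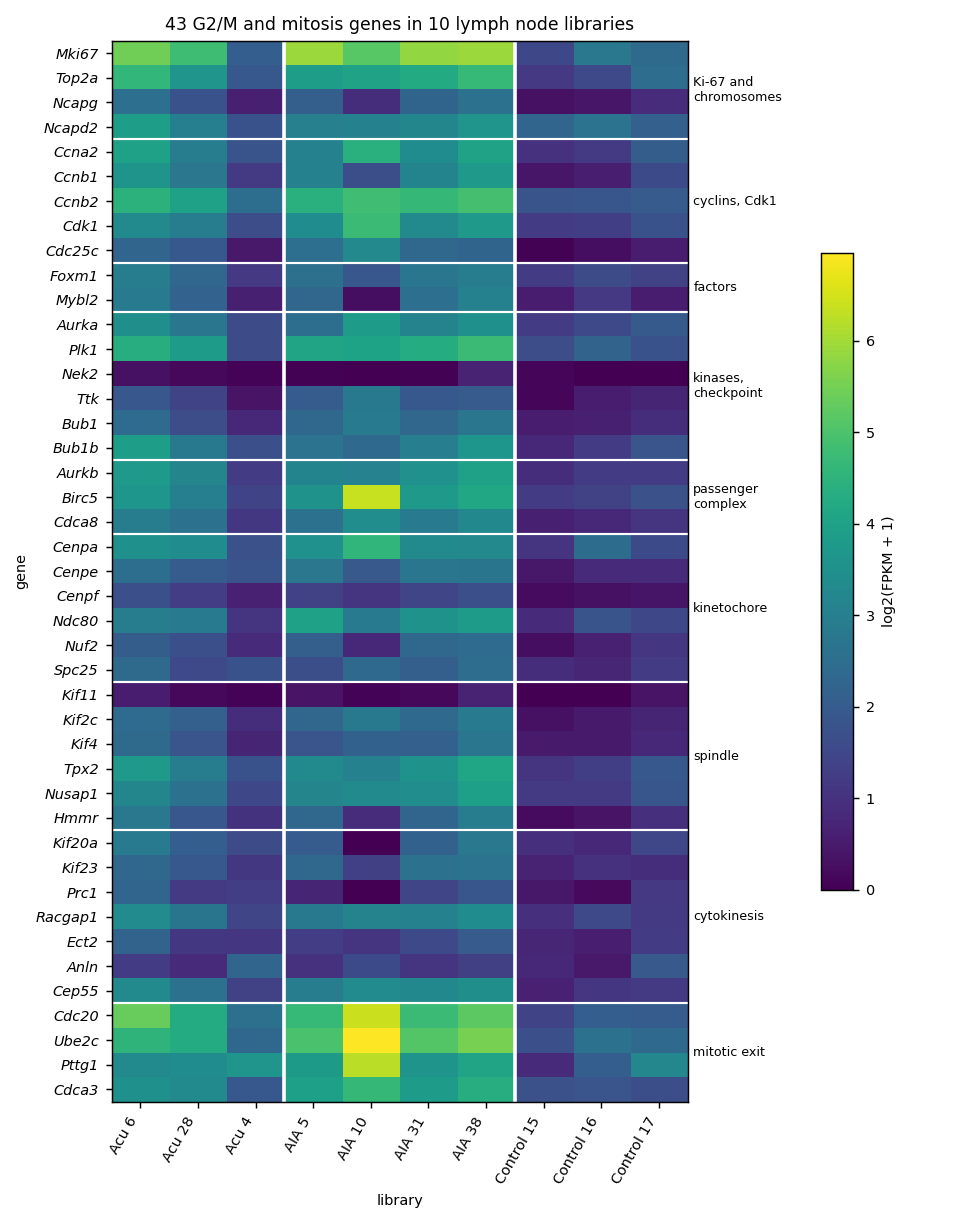
Level of each of the 43 members, log2(FPKM + 1) by colour, in 10 libraries, with genes in rows grouped by role and Acu, AIA and Control libraries from left to right. AIA and Acu 6 and 28 are brighter than Control for most genes, the library labelled Acu 4 resembles Control, and AIA 10 is brightest for Ube2c, Cdc20, Birc5 and Pttg1 and dark for Kif20a, Prc1 and Mybl2.

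Among the chromosome proteins, 2 of 4 members rose over 8 libraries. Mki67 (ENSMUSG00000031004, chr7:135689784-135716361, minus strand) encodes Ki-67, the protein that coats mitotic chromosomes and marks cycling cells. With libraries in the order Acu 6, 28 and 4, AIA 5, 10, 31 and 38, and Control 15, 16 and 17, here and below, Mki67 stood at 42.6, 26.9 and 3.20 FPKM in Acu, 59.4, 34.4, 55.8 and 59.5 FPKM in AIA, and 1.85, 5.96 and 4.27 FPKM in Control. All 4 AIA libraries were above all 3 Control libraries, with AIA 10 the lowest of the 4. Mki67 rose by 3.53 (SE 0.44, adjusted p = 0.00334) over 8 libraries and stood 3.47 higher over 10 (adjusted p = 0.0638). Top2a, the topoisomerase that untangles sister chromatids, stood at 23.4, 11.4 and 2.78 FPKM in Acu, 13.9, 14.99, 18.2 and 24.4 FPKM in AIA, and 1.21, 1.87 and 4.63 FPKM in Control. The groups again did not overlap between AIA and Control, and the library labelled Control 17 was the highest Control. Top2a rose by 2.86 (SE 0.37, adjusted p = 0.00376). The condensin subunits Ncapg and Ncapd2, which compact chromosomes, did not pass, at 1.59 (SE 0.47, adjusted p = 0.0591) and 0.75 (SE 0.34, adjusted p = 0.179). Ncapg had 0.886 FPKM in AIA 10 and 3.27 to 5.16 FPKM in the other AIA libraries, and without AIA 10 it passed.

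All 5 cyclins, Cdk1 and its activator rose. Ccnb2 (ENSMUSG00000032218, chr9:70407692-70421547, minus strand), a B-type cyclin, had the smallest adjusted p of all members. Its level was 21.0, 14.7 and 4.72 FPKM in Acu, 20.2, 27.1, 23.7 and 28.9 FPKM in AIA, and 2.503, 2.62 and 2.98 FPKM in Control. The Control libraries were close to one another, and the lowest AIA library was well above them. Ccnb2 rose by 2.84 (SE 0.29, adjusted p = 0.00273), with 25.0 ± 3.83 FPKM in AIA (SD, n = 4) and 2.70 ± 0.247 FPKM in Control (SD, n = 3). Ccna2, cyclin A2, which acts in S phase and G2, stood at 14.7, 6.56 and 2.49 FPKM in Acu, 7.30, 20.2, 9.53 and 15.2 FPKM in AIA, and 0.983, 1.25 and 3.14 FPKM in Control. It rose by 2.62 (SE 0.46, adjusted p = 0.0101), and without Control 15 the adjusted p was 0.0870. Ccnb1, the cyclin of mitotic entry, stood at 11.1, 5.74 and 1.28 FPKM in Acu, 7.31, 2.18, 7.85 and 12.6 FPKM in AIA, and 0.332, 0.506 and 1.95 FPKM in Control. AIA 10 was just above the library labelled Control 17 and far below the other AIA libraries. Ccnb1 rose by 2.39 (SE 0.55, adjusted p = 0.0260), a call that was lost in 5 of the 8 fits without 1 library (Control 15, Control 16, AIA 5, AIA 31 or AIA 38). Cdk1, the kinase that B cyclins activate, stood at 8.96, 6.67 and 2.14 FPKM in Acu, 9.38, 25.8, 8.86 and 12.5 FPKM in AIA, and 1.34, 1.44 and 2.39 FPKM in Control. Here AIA 10 was the highest of all libraries. Cdk1 rose by 2.52 (SE 0.43, adjusted p = 0.00911), with an adjusted p of 0.0749 without Control 15. Cdc25c, a phosphatase that switches Cdk1 on, rose by 2.42 (SE 0.34, adjusted p = 0.00494), with 3.76 to 8.64 FPKM in AIA and 0.0313 to 0.436 FPKM in Control. Its levels in Control 15, 16 and 17 rest on 1, 6 and 13 reads.

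**Figure D3:**
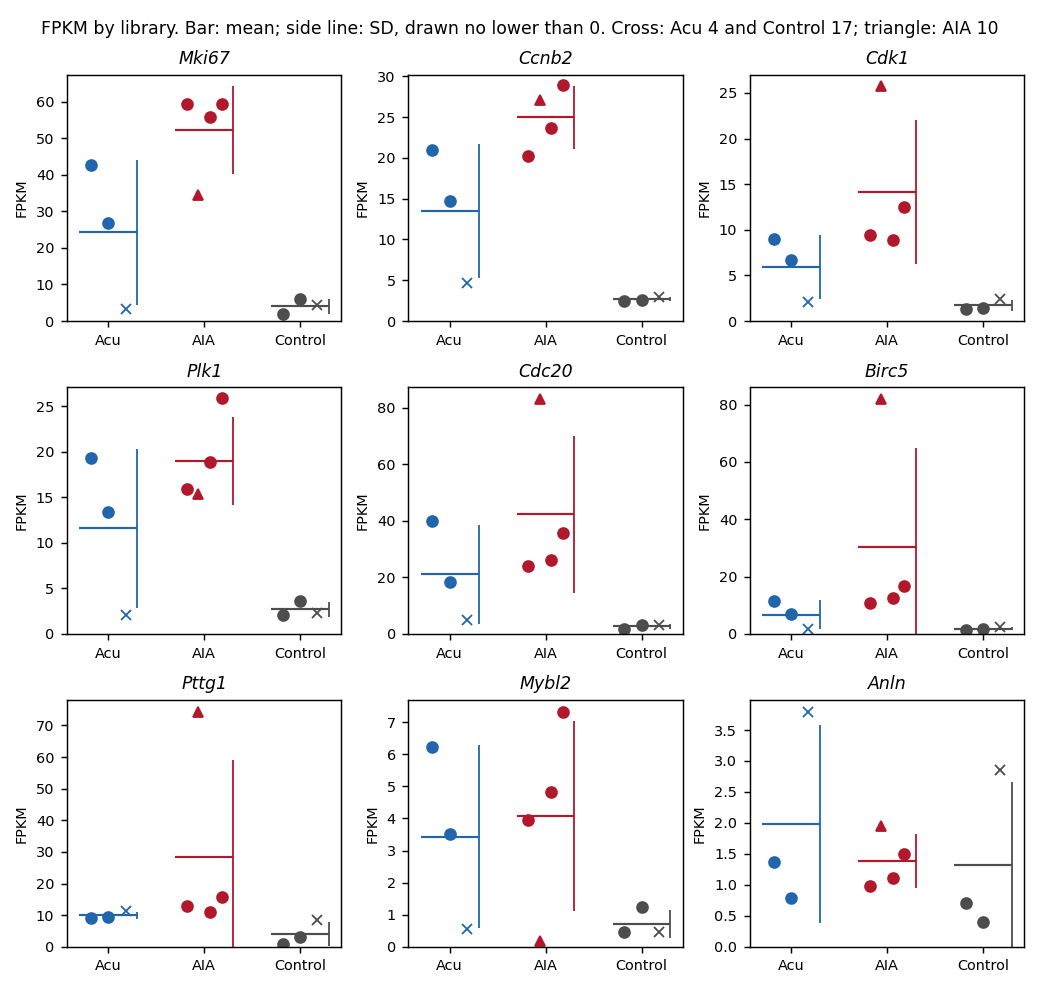
FPKM of 9 members by library, with Acu, AIA and Control from left to right in each panel; bars are means over all libraries of a group and side lines are SD. AIA 10 (triangle) is the highest library for Cdk1, Cdc20, Birc5 and Pttg1 and the lowest AIA library for Mki67 and Mybl2, and Anln is highest in the libraries labelled Acu 4 and Control 17 (crosses).

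The 2 transcription factors of the G2/M programme did not pass. Foxm1, which activates late cell cycle genes, stood at 6.71, 3.87 and 1.24 FPKM in Acu, 4.92, 2.68, 5.66 and 6.70 FPKM in AIA, and 1.35, 2.04 and 1.55 FPKM in Control. Every AIA library was above every Control library, by little in AIA 10. The difference was 1.10 (SE 0.37, adjusted p = 0.0851). Mybl2, or B-Myb, which joins the MuvB complex to turn these genes on, stood at 6.24, 3.53 and 0.542 FPKM in Acu, 3.96, 0.190, 4.84 and 7.33 FPKM in AIA, and 0.447, 1.23 and 0.450 FPKM in Control. AIA 10, with 10 reads, was below all Control libraries, and the other AIA libraries were above them. The difference was 1.19 (SE 0.70, adjusted p = 0.297) with AIA 10 in the fit, and both factors passed in the fit without AIA 10 (adjusted p of 0.0189 for Foxm1 and 0.0154 for Mybl2).

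All 5 tested members among the mitotic kinases and the spindle checkpoint rose. Plk1, the Polo kinase of spindle assembly, stood at 19.3, 13.3 and 2.09 FPKM in Acu, 15.9, 15.4, 18.9 and 25.9 FPKM in AIA, and 2.13, 3.62 and 2.34 FPKM in Control. The AIA range was clear of the Control range. Plk1 rose by 2.35 (SE 0.34, adjusted p = 0.00508). Aurka, the Aurora kinase of spindle poles, stood at 10.02, 5.65 and 2.03 FPKM in Acu, 4.74, 13.1, 7.70 and 10.3 FPKM in AIA, and 1.35, 1.92 and 2.91 FPKM in Control. AIA 5 was the lowest AIA library and still above the library labelled Control 17. Aurka rose by 1.84 (SE 0.41, adjusted p = 0.0240), and lost the call without Control 15 (adjusted p = 0.186) and without AIA 38. Bub1b, or BubR1, which holds the checkpoint until chromosomes are attached, stood at 13.6, 6.06 and 2.25 FPKM in Acu, 5.31, 4.17, 6.87 and 11.7 FPKM in AIA, and 0.726, 1.33 and 2.54 FPKM in Control. AIA and Control did not overlap, and Acu 6 was the highest library. Bub1b rose by 1.90 (SE 0.44, adjusted p = 0.0279), a call lost without any 1 of Control 15, AIA 5, AIA 31 and AIA 38 (without Control 15, adjusted p = 0.222). The checkpoint kinases Ttk and Bub1 rose by 1.84 and 1.97 (adjusted p = 0.0123 and 0.00806), with adjusted p of 0.109 and 0.0632 without Control 15. Nek2, a centrosome kinase, was at 0.251, 0.0993 and 0.0417 FPKM in Acu, 0.0302, 0, 0.0249 and 0.625 FPKM in AIA, and 0.0943, 0 and 0 FPKM in Control, with 48 reads in AIA 38 and at most 23 in any other library.

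The chromosomal passenger complex, which corrects faulty attachments, had 3 of 3 members higher. Aurkb, its kinase, stood at 12.6, 7.90 and 1.301 FPKM in Acu, 7.75, 7.49, 10.4 and 14.7 FPKM in AIA, and 0.867, 1.32 and 1.37 FPKM in Control. The groups did not overlap between AIA and Control, nor between Acu 6 and 28 and Control. Aurkb rose by 2.35 (SE 0.35, adjusted p = 0.00580), and without Control 15 the adjusted p was 0.0569. Birc5, or survivin, stood at 11.6, 7.04 and 1.68 FPKM in Acu, 10.6, 81.9, 12.7 and 16.7 FPKM in AIA, and 1.31, 1.56 and 2.32 FPKM in Control. AIA 10 was far above every other library, and the remaining AIA libraries were above Control. Birc5 rose by 3.16 (SE 0.73, adjusted p = 0.0270), the call being lost without any 1 of Control 15, Control 16, AIA 38 and Acu 28 (without Control 15, adjusted p = 0.197). Cdca8, or borealin, rose by 2.32 (SE 0.31, adjusted p = 0.00402) and passed in all 8 fits without 1 library.

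At the centromere and kinetochore, 5 of 6 members rose. Ndc80, the microtubule-binding subunit, had the largest increase, 2.22 (SE 0.40, adjusted p = 0.0119), with 6.25 to 14.7 FPKM in AIA and 0.802 to 2.499 FPKM in Control. Cenpf, a large kinetochore protein, had the smallest. It stood at 2.23, 1.38 and 0.545 FPKM in Acu, 1.54, 1.10, 1.77 and 2.28 FPKM in AIA, and 0.158, 0.247 and 0.317 FPKM in Control. AIA and Control did not overlap, at a low level throughout. Cenpf rose by 1.12 (SE 0.27, adjusted p = 0.0318), and the call was lost without any 1 library other than AIA 10 (without Control 15, adjusted p = 0.193). Cenpa, the histone that marks centromeres, rose by 1.89 (SE 0.49, adjusted p = 0.0396), Cenpe, a kinetochore motor, by 1.87 (SE 0.33, adjusted p = 0.0111), and Spc25, a partner of Ndc80, by 1.31 (SE 0.35, adjusted p = 0.0433). The calls of Cenpa and Spc25 were each lost in 6 of 8 fits without 1 library, and without Control 15 the adjusted p was 0.111 for Ndc80, 0.0996 for Cenpe, 0.341 for Cenpa and 0.197 for Spc25. Nuf2, which pairs with Ndc80, had 0.737 FPKM in AIA 10, against 3.30 to 4.41 FPKM in the other AIA libraries and 0.201 to 1.161 FPKM in Control, and did not pass (1.46 (SE 0.47, adjusted p = 0.0750)).

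Of the spindle proteins, 4 of 5 tested rose. Tpx2, which activates Aurora A on microtubules, had the largest increase, 2.32 (SE 0.38, adjusted p = 0.00830), with 7.34 to 16.2 FPKM in AIA and 1.09 to 2.79 FPKM in Control. Nusap1, which bundles microtubules, rose by 2.27 (SE 0.32, adjusted p = 0.00482) and Kif2c, a kinesin that takes microtubules apart, by 2.15 (SE 0.28, adjusted p = 0.00392), and both passed in all 8 fits without 1 library. Kif4, a chromosome-bound kinesin, had the smallest increase that passed, 1.69 (SE 0.32, adjusted p = 0.0136), and without Control 15 Kif4 and Tpx2 had adjusted p of 0.0901 and 0.0724. Hmmr, a spindle protein also known as the hyaluronan receptor RHAMM, had 0.828 FPKM in AIA 10, below the 0.935 FPKM of the library labelled Control 17, and did not pass (1.79 (SE 0.54, adjusted p = 0.0608)). Kif11, the motor that pushes spindle poles apart, was listed at 0.450, 0.103 and 0.0391 FPKM in Acu, 0.297, 0.0549, 0.105 and 0.586 FPKM in AIA, and 0, 0 and 0.297 FPKM in Control. At 0 to 48 reads a library, Kif11 was below the filter, and no difference was tested for it.

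Of the 7 members of cytokinesis, 2 rose. Cep55, which directs the final separation of daughter cells, rose by 2.38 (SE 0.32, adjusted p = 0.00414), with 6.72 to 10.1 FPKM in AIA and 0.547 to 1.27 FPKM in Control. Racgap1, a subunit of centralspindlin, rose by 1.85 (SE 0.32, adjusted p = 0.0103), and had an adjusted p of 0.0880 without Control 15. Its partner Kif23 stood 1.38 higher (adjusted p = 0.0599), Ect2, the exchange factor that activates RhoA, 0.80 (0.197), Kif20a, a kinesin of the central spindle, 0.88 (0.429), and Prc1, which bundles its microtubules, 0.69 (0.421). Over 10 libraries Prc1 stood 0.42 higher (adjusted p = 0.602). Kif20a and Prc1 were listed at 0 in AIA 10, against 3.05 to 5.90 and 0.638 to 2.66 FPKM in the other AIA libraries. Anln, or anillin, the scaffold of the contractile ring, stood at 1.37, 0.786 and 3.79 FPKM in Acu, 0.985, 1.95, 1.12 and 1.499 FPKM in AIA, and 0.711, 0.393 and 2.86 FPKM in Control. Its highest levels were in the libraries labelled Acu 4 and Control 17, where decidual genes were high, and AIA and Control overlapped. Over 8 libraries, without both, the difference was 0.60 (SE 0.27, adjusted p = 0.173), the smallest of the 41, and over 10 it was 0.17 (SE 0.43, adjusted p = 0.824).

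All 4 members of mitotic exit rose. Cdc20 (ENSMUSG00000006398, chr4:118432901-118437352, minus strand), the activator of the anaphase-promoting complex, stood at 39.8, 18.3 and 4.91 FPKM in Acu, 24.2, 83.1, 26.0 and 35.7 FPKM in AIA, and 1.69, 3.19 and 3.03 FPKM in Control. The lowest AIA library was well above the highest Control library, and AIA 10 was highest. Cdc20 rose by 3.49 (SE 0.55, adjusted p = 0.00727), with an adjusted p of 0.0766 without Control 15. Ube2c, the ubiquitin-conjugating enzyme of the complex, stood at 21.9, 18.3 and 3.99 FPKM in Acu, 29.97, 123, 33.1 and 44.9 FPKM in AIA, and 2.22, 5.05 and 4.23 FPKM in Control. Acu 6 and 28 lay below all AIA libraries and above all Control libraries. Ube2c rose in AIA by 3.47 (SE 0.58, adjusted p = 0.00847), with an adjusted p of 0.0908 without Control 15. Pttg1, or securin, which holds back separase until anaphase, stood at 8.95, 9.54 and 11.3 FPKM in Acu, 12.9, 74.2, 11.1 and 15.7 FPKM in AIA, and 0.791, 3.20 and 8.34 FPKM in Control. AIA 10 stood far above the rest, and the libraries labelled Acu 4 and Control 17 held more Pttg1 than the others of their groups. Pttg1 rose by 2.95 (SE 0.73, adjusted p = 0.0335), a call lost without any 1 of Control 15, AIA 5, AIA 38, Acu 6 and Acu 28 (without Control 15, adjusted p = 0.298). Cdca3, a trigger of mitotic entry that the complex degrades, had the smallest increase of the 4, 2.40 (SE 0.31, adjusted p = 0.00354), and passed in all 8 fits without 1 library.

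**Figure D4:**
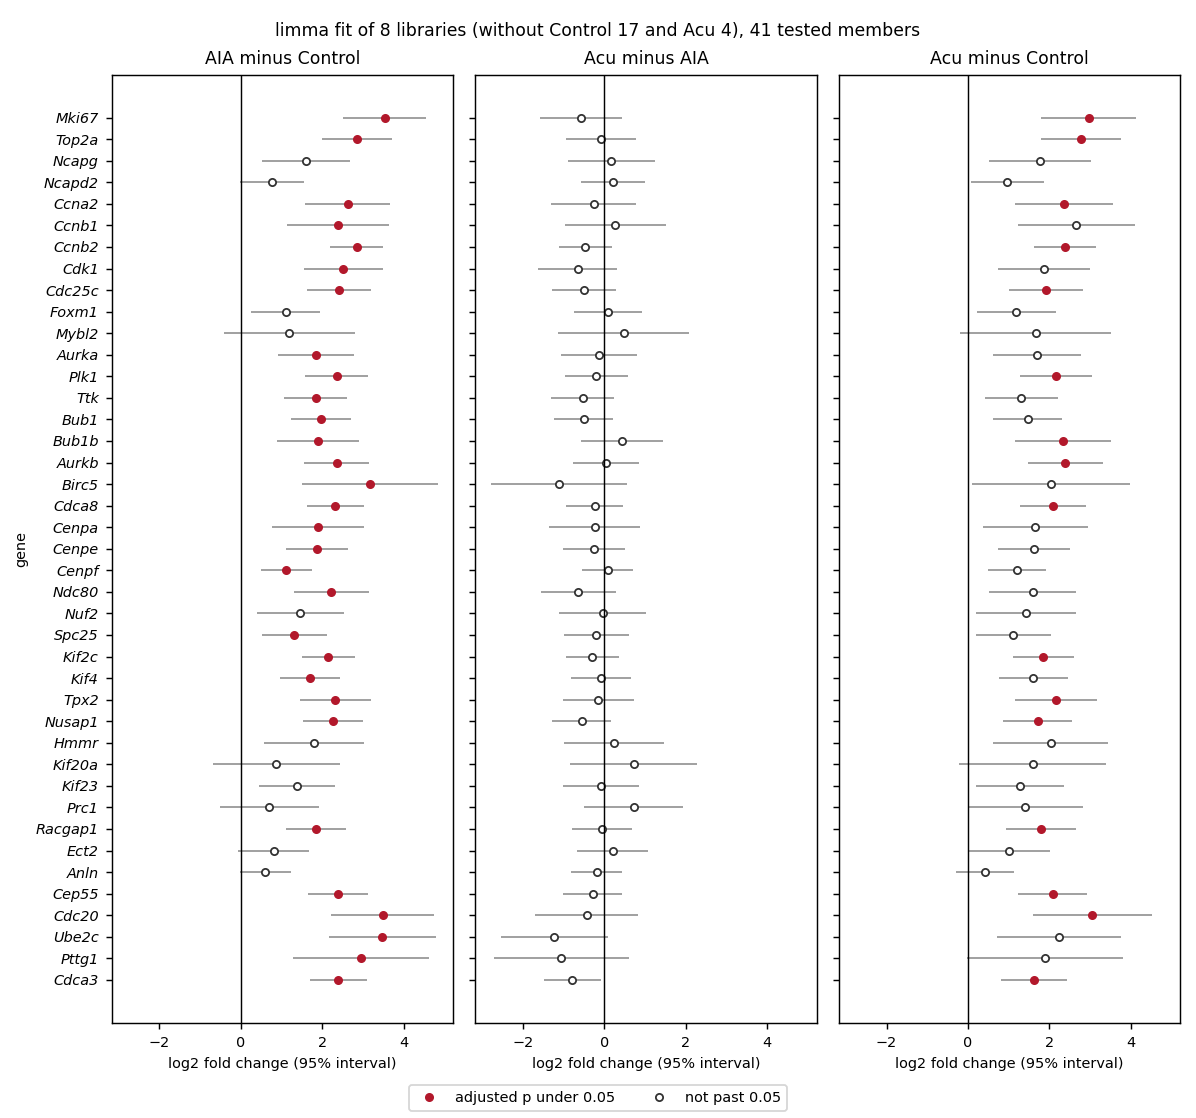
Fold changes of the 41 tested members, log2(FPKM + 1), with 95% intervals, from the limma fit of 8 libraries, for AIA minus Control (left), Acu minus AIA (middle) and Acu minus Control (right). Filled points passed an adjusted p of 0.05; 30 did so on the left, 0 in the middle and 16 on the right.

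Several of these genes overlap a neighbour in the annotation or have a named pseudogene copy, and the sources used here do not state whether the counting used strand. Cdc20 overlaps Elovl1 on the opposite strand (up to 28.6 FPKM), Kif4 overlaps Pdzd11 (up to 14.99 FPKM), Ccna2 overlaps Exosc9 (up to 8.69 FPKM) and Cdca8 overlaps 9930104L06Rik (up to 7.26 FPKM). Kif20a, Prc1, Nusap1 and Ncapg overlap Cdc23, Rccd1, Oip5 and Lcorl on the opposite strand, each at no more than 4.86 FPKM. Ndc80 contains the rRNA gene Gm23115 on its own strand (up to 3.13 FPKM). Pseudogene copies of Ccnb1 and Ccnb2 reached 0.920 and 3.12 FPKM. Whether reads were shared was not tested, and the values of these members are uncertain to that extent.

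AIA 10 had a make-up of these transcripts unlike that of the other 3 AIA libraries. Against their mean, it held 6.14 times as much Birc5, 5.61 times as much Pttg1, 3.43 times as much Ube2c and 2.90 times as much Cdc20. It held 0.035 times as much Mybl2, and Kif20a, Prc1 and Nek2 were listed at 0 there. Over the 41 tested members the ratio had a median of 0.860, with 19 above 1. The summed FPKM of the 43 members was 679 in AIA 10 and 368, 400 and 526 in AIA 5, 31 and 38. The coefficient of variation of a member over the AIA libraries had a median of 35.8% with AIA 10 and 23.1% without it. Across the 43 members, log2(FPKM + 1) in AIA 10 correlated with AIA 5, 31 and 38 at r = 0.82, 0.81 and 0.79, while those 3 correlated with each other at 0.96 to 0.99; these are descriptions over genes of one table, which share their lengths, and genes are not replicates. AIA 10 also listed the most genes at 0 and had the lowest read total, and the part of this in its values was not tested.

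**Figure D5:**
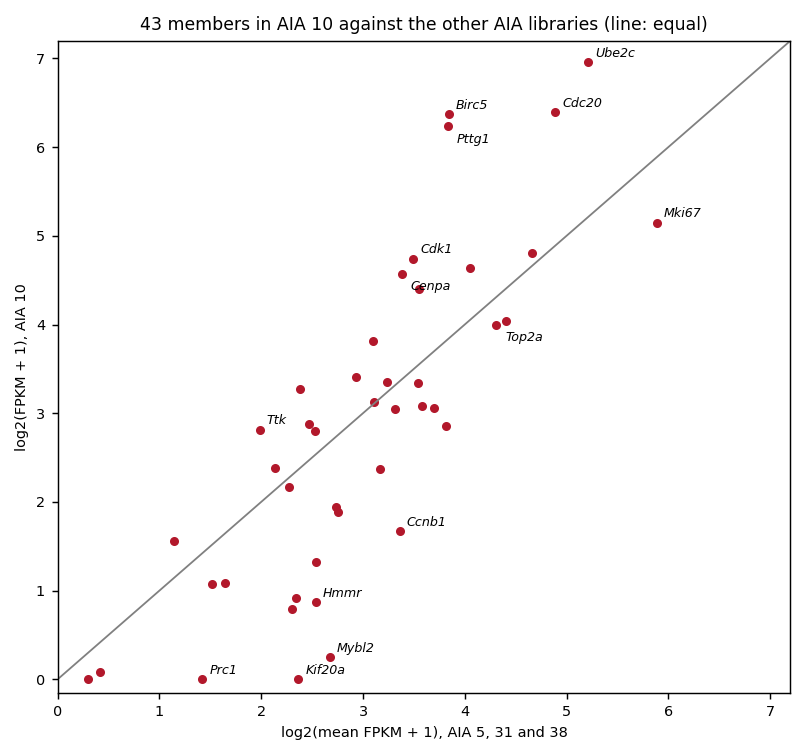
Each point is 1 of the 43 members, log2(FPKM + 1) in AIA 10 (vertical) against log2 of the mean FPKM + 1 in AIA 5, 31 and 38 (horizontal), with the line of equal levels. Birc5, Pttg1, Ube2c and Cdc20 lie above the line, and Mybl2, Kif20a, Prc1, Hmmr and Ccnb1 below it.

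The second comparison asks whether acupuncture after adjuvant altered these transcripts relative to adjuvant alone. None of the 41 members passed in either fit, and neither did any other gene (0% of 17010 genes over 10 libraries and 0% of 16067 over 8, in either direction, limma). Over 10 libraries, 37 of 41 stood lower in Acu, with a median of −0.72, against 0.08 over all genes, and 11 of 41 had an unadjusted p under 0.05, as did 799 of all genes. Over 8 libraries 29 stood lower and 12 higher, the median was −0.20, against 0.06 over all genes, and 1 of 41 had an unadjusted p under 0.05 (Cdca3), as did 480 of all genes. The fits differ by the library labelled Acu 4, with its few T and B cell transcripts, and by the library labelled Control 17. Acu lay below every AIA library for 3 of 41 members over 10 libraries (Ube2c, Cdca3 and Ttk), against 5.1% of all genes, and for 4 over 8 (those 3 and Pttg1), against 7.69%.

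The largest decrease estimated over 8 libraries was that of Ube2c, at −1.23 with a 95% interval of −2.55 to 0.08 and an adjusted p of 0.984, and the largest increase that of Kif20a, at 0.72 (−0.85 to 2.28). Mki67 stood at −0.57 (−1.59 to 0.44) over 8 libraries and at −1.60 (−3.18 to −0.01) over 10. Ccnb2 stood at −0.47 (−1.13 to 0.20), Cdk1 at −0.66 (−1.64 to 0.31) and Birc5 at −1.12 (−2.80 to 0.55). Top2a, Aurkb and Foxm1 had estimates near 0, at −0.08 (−0.93 to 0.77), 0.04 (−0.76 to 0.84) and 0.09 (−0.76 to 0.93). For the other key members the estimates were −0.27 for Ccna2, 0.27 for Ccnb1, −0.20 for Plk1, −0.14 for Aurka, 0.43 for Bub1b, −0.44 for Cdc20, 0.08 for Cenpf and 0.48 for Mybl2. Each interval given here over 8 libraries holds 0, and most also hold a change of about 1 on the log2 scale.

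The Acu libraries did not act as a block. Acu 6 was within the range of the 4 AIA libraries for 31 of 41 members, above it for 6 and below it for 4. Acu 28 was within it for 17 and below it for 24, and above it for none. Against AIA 5, 31 and 38 without AIA 10, Acu 28 was below all 3 for 35 of 41 members, with a median ratio to their mean of 0.620, and Acu 6 was above all 3 for 7 (Ncapd2, Foxm1, Bub1b, Kif20a, Prc1, Ect2 and Cdc20), with a median ratio of 1.09. Acu 6 stood above Acu 28 for 40 of 41 members, by a median of 1.68 times, the exception being Pttg1. T cell markers were at 5.38 and 5.50 in Acu 6 and 28. The library labelled Acu 4 was below all AIA libraries for 32 of 41 members, and its profile over the 43 members correlated best with that of the library labelled Control 17 (r = 0.89), while that of Acu 28 correlated best with that of AIA 31 (r = 0.98).

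The third comparison sets adjuvant with acupuncture against saline, and it shares its Control libraries with the first. Over 8 libraries 16 of 41 members rose in Acu, against a background of 0.89%, with a median of 1.77, against 0.06 over all genes. They were Mki67, Top2a, Ccna2, Ccnb2, Cdc25c, Plk1, Bub1b, Aurkb, Cdca8, Kif2c, Tpx2, Nusap1, Racgap1, Cep55, Cdc20 and Cdca3. Mki67 rose by 2.96 (SE 0.51, adjusted p = 0.0227), Cdc20 by 3.05 (SE 0.64, adjusted p = 0.0380), Top2a by 2.78 (SE 0.43, adjusted p = 0.0184), Ccnb2 by 2.37 (SE 0.33, adjusted p = 0.0162) and Plk1 by 2.16 (SE 0.39, adjusted p = 0.0250). Ube2c stood 2.24 higher (adjusted p = 0.0971), Ccnb1 2.66 (0.0540) and Cdk1 1.86 (0.0723), and these did not pass. Acu 6 and 28 lay above Control 15 and 16 for 41 of 41 members, but so did 32.4% of all genes. Over 10 libraries 0 of 41 passed, against a background of 0%, with a median of 1.21 and the smallest adjusted p at 0.496 (Cenpe), and Acu lay above every Control library for 14 of 41, against 4.87% of all genes. At an unadjusted p under 0.05 there were 24 of 41 over 10 libraries, and 1275 of all 17010 genes. Over 8 libraries there were 36 of 41, and 3647 of all 16067 genes. None of the 16 calls held in all 8 fits without 1 library: 0 members passed without Control 15 (background 0%), without Acu 6 or without Acu 28. Without AIA 10, which is in neither group but adds to the shared spread, 36 of 41 passed, against a background of 5.59%.

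The wider cell division machinery was read from 6 lists, over the same 8 libraries for AIA minus Control. Of 43 other mitosis genes, 25 rose and none fell (4.28% and 9.2% of all 16067 genes did so), with a median of 1.36, against −0.01 over all genes, the smallest p being those of Cenpm, a centromere protein, at 2.59 (SE 0.30, adjusted p = 0.00303), Spc24, a kinetochore subunit, at 2.38 (SE 0.32, adjusted p = 0.00407), and Hmgb2, a chromatin protein, at 2.98 (SE 0.41, adjusted p = 0.00422). Zwint, a kinetochore protein, stood at −0.25 (SE 0.46, adjusted p = 0.765) and Troap at 0.91 (SE 0.61, adjusted p = 0.359), and did not pass. Of 28 genes of DNA replication and S phase, 18 rose and none fell, with a median of 1.51, led by Uhrf1, which copies DNA methylation, at 2.39 (SE 0.37, adjusted p = 0.00675), the helicase subunit Mcm3 at 2.32 (SE 0.37, adjusted p = 0.00772), and Rrm2, a ribonucleotide reductase subunit, at 3.11 (SE 0.51, adjusted p = 0.00818). The library labelled Acu 4 held 292 FPKM of Rrm2, AIA held 13.9 to 39.7 FPKM and the library labelled Control 17 held 1421 FPKM, and over 10 libraries its difference was 0.16 (SE 1.94, adjusted p = 0.967). The nuclease Fen1 stood at 0.27 (SE 0.35, adjusted p = 0.652). Its level was low, at 0 to 0.899 FPKM in AIA and 0.0267 to 0.457 FPKM in Control, where a pseudocount of 1 understates fold changes. Of 23 genes of the DREAM and MuvB complexes, E2F and pocket proteins, 3 rose: Rbl1 by 1.08 (SE 0.27, adjusted p = 0.0369), E2f2 by 1.80 (SE 0.49, adjusted p = 0.0456) and E2f8 by 1.54 (SE 0.42, adjusted p = 0.0458). E2f8 was at 1.18 to 5.13 FPKM in AIA, against 24.9 FPKM in the library labelled Control 17, and over 10 libraries its difference was 0.12 (SE 0.93, adjusted p = 0.946). The median of that list was 0.33. Of 15 G1 cyclins, their kinases and Cdk inhibitors, 3 rose: the Cdk inhibitor Cdkn2a, the cyclin Ccne1 and the kinase Cdk4. Cdkn2a was at 4.13 to 6.92 FPKM in AIA and 0.260 to 1.21 FPKM in Control. Of the same 15, 2 fell, also Cdk inhibitors: Cdkn1c, at −3.22 (SE 0.47, adjusted p = 0.00545), and Cdkn2c, at −2.22 (SE 0.40, adjusted p = 0.0115). The share that fell, 2 of 15, is near the 9.2% of all genes. Over 10 libraries Cdkn2c stood at −1.23 (SE 0.68, adjusted p = 0.282). Control 15 and 16, the Control libraries of this fit, also held the most adipocyte and muscle marker RNA, and the part of these in these 2 decreases was not tested. Neither the 13 core subunits of the anaphase-promoting complex, the machine that Cdc20 and Ube2c serve, nor the 10 cohesin genes had a call, and their medians were −0.14 and 0.40. Over 10 libraries none of these lists had a call. Fits without 1 library were read for the members only, so how far the calls of these lists depend on Control 15 was not tested.

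The promoter letters were also counted by call. Of the 26 members with a promoter that rose over 8 libraries, 21 held a CHR core and 20 a CCAAT box, and of the 11 that did not pass or were not tested, 8 and 8 did. Among those printed, Ccnb1 rose without a CHR core and Anln did not pass with one.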

How the data were processed

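Trizol RNA of popliteal lymph nodes went into NEBNext Ultra libraries, as the labels' protocols state. The submitters' processing notes list DESeq2 1.16.1, featureCounts 1.5.0-p3, StringTie 1.3.3b and HISAT2 2.0.5, and the build mm10; the role of each and the use of strand are not stated there. The authors deposited FPKM per gene for all 10 libraries, and 0 columns lacked a sample. FPKM times gene length fell on whole reads within 0.01 of a step in each library, so reads were recovered for depth and for a check with voom.

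The 43 genes, the lists and the tests were chosen with earlier results of these data known. FPKM was scaled by median of ratios (factors all 0.996), genes with at least 0.5 FPKM in at least 3 libraries were kept, and log2(FPKM + 1) was tested with limma 3.58.1 (R 4.3.3, mean-variance trend, 3 groups in 1 fit, two-sided), with Benjamini-Hochberg adjustment over all genes tested and a threshold of 0.05. A pseudocount of 1 understates fold changes of low genes. The fit was made over 10 libraries, and over 8 without the libraries labelled Control 17 and Acu 4. Full values are given for 16 members named by rule, for the largest and smallest fold change of each role group and for members that did not pass, and, of related lists, for up to 3 genes by the smallest and 2 by the largest p. Other members, and single libraries of AIA 10 or Acu, were added after their values were seen. The procedure was tested on simulated data of the 10-library layout. Neither the 8-library fit nor libraries of unlike tissue make-up were simulated, so that test does not cover the calls over 8 libraries. Alternatives were a pseudocount of 0.1, no filter, FPKM as deposited, array weights, voom, only the 2 groups compared, and leaving out each library in turn. Promoter sequences are from RefSeq, GRCm38.p6. Precision rests on read counts and on the number of libraries. The 10-library fit has 3 or 4 libraries a group, and the 8-library fit has 2 Control, 4 AIA and 2 Acu libraries.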

Additional observations from a re-analysis of the deposited data

Results flagged for a closer look

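Of 45 sets of 4 AIA values examined (43 members, their mean and their sum), 8 had 1 library farther from the nearest other than Dixon's 95% criterion allows. Chance gives about 1 in 20 for separate sets. All 45 come from the same 4 libraries, so the 8 cannot be set against that rate. In 7 of the 8 flagged sets the library was AIA 10. It stood high for Birc5 (81.9 FPKM), Ube2c (123 FPKM), Pttg1 (74.2 FPKM), Cenpa (22.8 FPKM) and Ttk (6.03 FPKM), and low for Mki67 (34.4 FPKM) and Cenpe (2.83 FPKM). The other was Nek2, at 0.625 FPKM in AIA 38. AIA 10 had the fewest reads and the most genes listed at 0, and the part of this in these values was not tested.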

How the results depend on the processing

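No paired analysis was possible because the groups share no replicate number. Over 10 libraries, AIA minus Control had 0 members called, 35 with array weights and 24 with only these 2 groups in the fit; leaving out 1 library gave 0 to 29 (18 without the library labelled Control 17, 29 without the library labelled Acu 4, 0 without any other). Acu minus Control had 0, 33 with array weights, and 0 to 4 without 1 library (4 without the library labelled Acu 4). Over 8 libraries, AIA minus Control had 30, 24 to 31 under the other settings, and 10 to 37 without 1 library. Acu minus Control had 16, 7 with voom, 0 with only the 2 groups compared, and 0 to 36 without 1 library: 0 without Control 15, Acu 6 or Acu 28, 5 without AIA 31, 6 without AIA 5, 9 without AIA 38 and 36 without AIA 10. Acu minus AIA had 0 in both fits under every setting run. The cause of these moves was not tested. Except where given above, the share of all genes called under the same setting is not shown here. Without that share, these counts cannot be read as particular to the members. With 1 Control or 1 Acu library left, that library is assumed to vary like the other groups.

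The median fold change of the members kept its sign under every setting run, except for Acu minus AIA over 8 libraries (−0.20), which ran from −0.45 to 0.13. No member's direction changed in AIA minus Control or Acu minus Control among the key members. In Acu minus AIA, where nothing passed, signs changed in several genes. Over 10 libraries, array weights gave 0.11 for Ccna2, 0.048 for Ccnb1, 0.076 for Aurka, 0.44 for Bub1b, 0.072 for Cdc20, 0.037 for Cenpf and 0.021 for Mybl2. Leaving out 1 library there gave −0.94 to 0.27 for Ccnb1, −1.25 to 0.036 for Aurkb, −0.66 to 0.43 for Bub1b, −0.46 to 0.075 for Cenpf, −0.81 to 0.085 for Foxm1 and −0.79 to 0.48 for Mybl2. Over 8 libraries, array weights gave 0.020 for Ccna2, −0.0059 for Ccnb1, 0.017 for Aurka, −0.040 for Aurkb, −0.11 for Foxm1 and −0.017 for Mybl2. Leaving out 1 library there gave −0.57 to 0.40 for Top2a, −0.80 to 0.26 for Ccna2, −0.16 to 0.69 for Ccnb1, −0.45 to 0.054 for Plk1, −0.51 to 0.22 for Aurka, −0.27 to 0.34 for Aurkb, −0.10 to 0.95 for Bub1b, −0.98 to 0.10 for Cdc20, −0.14 to 0.29 for Cenpf, −0.25 to 0.42 for Foxm1 and −0.14 to 0.82 for Mybl2. Kif11 and Nek2, each at 0 to 48 reads a library, were below the filter and were not tested in the main fits.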

Other observations

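Plasma cell and germinal centre markers, which no comparison above used, ran as follows. The mean log2(FPKM + 1) of 7 plasma cell markers was 6.63, 5.52 and 3.76 in Acu 6, 28 and the library labelled Acu 4, 6.06 to 6.47 in AIA, and 2.39, 2.95 and 2.69 in Control 15, 16 and 17. Plasma cell markers were thus high in the libraries where the mitosis genes were high, Acu 6 above Acu 28 in both. That order is not particular to them. The 28 genes of DNA replication and S phase averaged 3.43 in Acu 6 and 2.98 in Acu 28, and germinal centre markers ran the same way. A link between these lists was not tested. For 6 germinal centre markers the mean was 1.85, 1.40 and 1.00 in Acu, 1.63 to 2.39 in AIA, and 0.81, 0.99 and 1.34 in Control. Over the 41 tested members, the log2 level of AIA 10 relative to the other AIA libraries was lower in the longer ones. The 11 members of 6000 bases and over had a median of −0.74, against −0.28 over 3840 genes of that length. For 16 members of at least 4000 and under 6000 bases it was −0.15, against −0.19 over 3233 genes. For 8 members of at least 2000 and under 3000 bases it was 0.35, against −0.09 over 2462 genes. Over all genes the median did not simply fall with length. It was −0.46 over 3012 genes under 1000 bases, a range that holds no tested member.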
